A study of Homo sapiens with 6 samples.

Results

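Type I interferon response genes are the genes that cells switch on when they sense viral nucleic acid or receive interferon alpha or beta. Cytoplasmic sensors such as the RNA helicase MDA5, encoded by IFIH1, activate the transcription factors IRF3 and IRF7, which switch on interferon genes. Secreted interferon binds the receptor chains IFNAR1 and IFNAR2, and the kinases JAK1 and TYK2 then activate STAT proteins such as STAT2, which joins IRF9 on a promoter element called ISRE and raises effectors that block viral replication. Many of these genes are also transcribed at a low level without interferon, from unphosphorylated STAT proteins and factors of the IRF family.

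The genes described here are 46 named members of this response, each taken once as the row of the deposited count table with that gene name. All 46 were found among 60835 distinct gene names. They were divided by role into 10 receptors, sensors and transcription factors and 36 effectors. The RNA came from HEY, an ovarian cancer cell line of human origin, and was sequenced as 3 siCCNL2 libraries, from cells given siRNA against CCNL2, and 3 siNC libraries, from cells given control siRNA. A treatment time of 48 h is stated for CCNL2 siRNA, identically for all 6 libraries, so the groups rest on the sample titles. All cells share 1 line and 1 medium, no added interferon or virus is named in the labels, and the siRNAs act on a whole culture rather than a clone. Separate cultures are not stated for replicates, and the p-values therefore cover only the spread among the libraries at hand, which may be technical. Measured RNA is that of the whole culture, in which fewer cells expressing a gene and less RNA per cell cannot be told apart.

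Total counts ran from 13596286 to 18095529 in siCCNL2 libraries and from 15771604 to 16934044 in siNC libraries. CCNL2, which encodes a cyclin with roles in transcription and splicing, averaged 190 ± 11.2 CPM in siCCNL2 and 258 ± 10.8 CPM in siNC (SD, n = 3 each, counts per 1000000 counts after scaling by TMM factors), a log2 fold change of -0.44 with an exact two-sided permutation p of 0.1, the smallest that 3 against 3 libraries allow. Epithelial keratin KRT8 (847 ± 44.6 CPM in siCCNL2 and 998 ± 37.3 CPM in siNC) and the Müllerian lineage factor PAX8 (116 ± 4.08 CPM in siCCNL2 and 131 ± 3.3 CPM in siNC) were present and called lower. KRT7 (log2 fold change -0.59), KRT18 (-0.22) and WT1 (-0.46) were also called lower. Not called were KRT19 (-0.27), the ovarian carcinoma marker MSLN (-0.27) and EPCAM, which lay higher in every siCCNL2 library (0.58). The 5 epithelial markers summed to between 1530 and 1683 CPM in siCCNL2 and between 2023 and 2104 CPM in siNC. The ovarian carcinoma marker MUC16 was near 0 (0.174 CPM in siCCNL2 and 0.0197 CPM in siNC). Of 7 leukocyte markers, 6 stayed under 1 CPM in all 6 libraries, including PTPRC and CD3E, and FCGR3A and CLEC4C had 0 counts. Their summed level, nearly all of it from the integrin gene ITGAX, which was called lower, ran from 4.92 to 7.73 CPM in siCCNL2 and from 8.65 to 12.3 CPM in siNC. Of 3 endothelial markers, CDH5 and PECAM1 were called lower in siCCNL2 and VWF was not called. Their sum ran from 45.3 to 54.8 CPM in siCCNL2 and from 115 to 120 CPM in siNC. Nearly all of it came from CDH5, which averaged 47.2 CPM in siCCNL2 and 114 CPM in siNC. The part of these marker differences in the results below was not tested.

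A promoter letter pattern was found in many of the members, though not in all. The members were not chosen by promoter letters. They were chosen from a response that acts through the ISRE, so a high share among them is not independent evidence. The core of the ISRE, searched as GAAA, any 2 bases and GAAA again on both strands of RefSeq promoters (GRCh38.p14, 250 bases before to 50 after the start), was found for 24 of the 36 members that have a promoter entry (66.7%), against 4.38% of all 27305 genes with an entry. A gene counts once if any of its promoters holds the core, and by single promoters the share was 3.57% of 35116. The shorter GAS pattern bound by STAT dimers, searched as TTC, any 3 bases and GAA on both strands, was found for 11 of the 36 members (30.6%), against 9.38% of all genes with an entry. The 30-base windows below are read 5′ to 3′ in the direction of each gene, with the matched ISRE core in capitals, and are shown because members that fell, rose and were not called all carry it. A match on the other strand reads as a pair of TTTC. Several of these promoters hold more than 1 match, of which 1 is shown, and matches can overlap each other, as in ISG15, or a GAS pattern, as in IFITM1.
OAS3, chr12:112938452-112938481, plus strand: agccgggcggGAAAACGAAAccagaaatcc
PARP14, chr3:122680800-122680829, plus strand: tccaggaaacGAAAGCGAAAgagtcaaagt
PARP12, chr7:140062942-140062971, minus strand: ccggggccgcTTTCGGTTTCgtttcccgcc
IFIT3, chr10:89332468-89332497, plus strand: gttccatcagTTTCACTTTCctttcccctt
DTX3L, chr3:122564322-122564351, plus strand: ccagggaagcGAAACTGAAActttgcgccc
PARP9, chr3:122564322-122564351, minus strand: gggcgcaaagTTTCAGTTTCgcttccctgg
IFIT1, chr10:89392510-89392539, plus strand: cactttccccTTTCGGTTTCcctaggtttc
ISG15, chr1:1013380-1013409, plus strand: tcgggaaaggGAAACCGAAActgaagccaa
IFIT5, chr10:89414513-89414542, plus strand: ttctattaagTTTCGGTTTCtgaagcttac
HERC5, chr4:88457035-88457064, plus strand: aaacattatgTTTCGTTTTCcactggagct
The first 5 of these genes were called lower, PARP9, IFIT1 and ISG15 were not called, and IFIT5 and HERC5 were called higher. DTX3L and PARP9 are read from the same 30 bases in opposite directions.

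Across the members, more genes were called lower than higher in siCCNL2. Calls were made where edgeR's quasi-likelihood test gave an adjusted p below 0.05, with Benjamini-Hochberg adjustment over all 15346 tested genes, of which 33.6% were called, 16.5% lower and 17.2% higher. Of the 46 members, 39 passed the filter on low counts, and of these 12 were called lower (30.8%), 2 higher (5.13%) and 25 were not called. The median log2 fold change was -0.21 over the 39 tested members and 0.00 over all tested genes (0.0023). Groups did not overlap, with siCCNL2 below siNC, for 17 of the 39 members and for 21.8% of all tested genes. The reverse held for 4 members and for 22.1% of all tested genes, and 43.9% of all tested genes showed no overlap in either direction. The 7 members that did not pass the filter had between 0 and 15 counts in any library. Of the 14 called members, 10 kept direction and call in all alternatives run. The exceptions were IRF3, HERC5, IFI44L and IFIT5. None of these was called at a threshold of 0.01, and IFIT5 lost its call there alone.

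**Figure D1:**
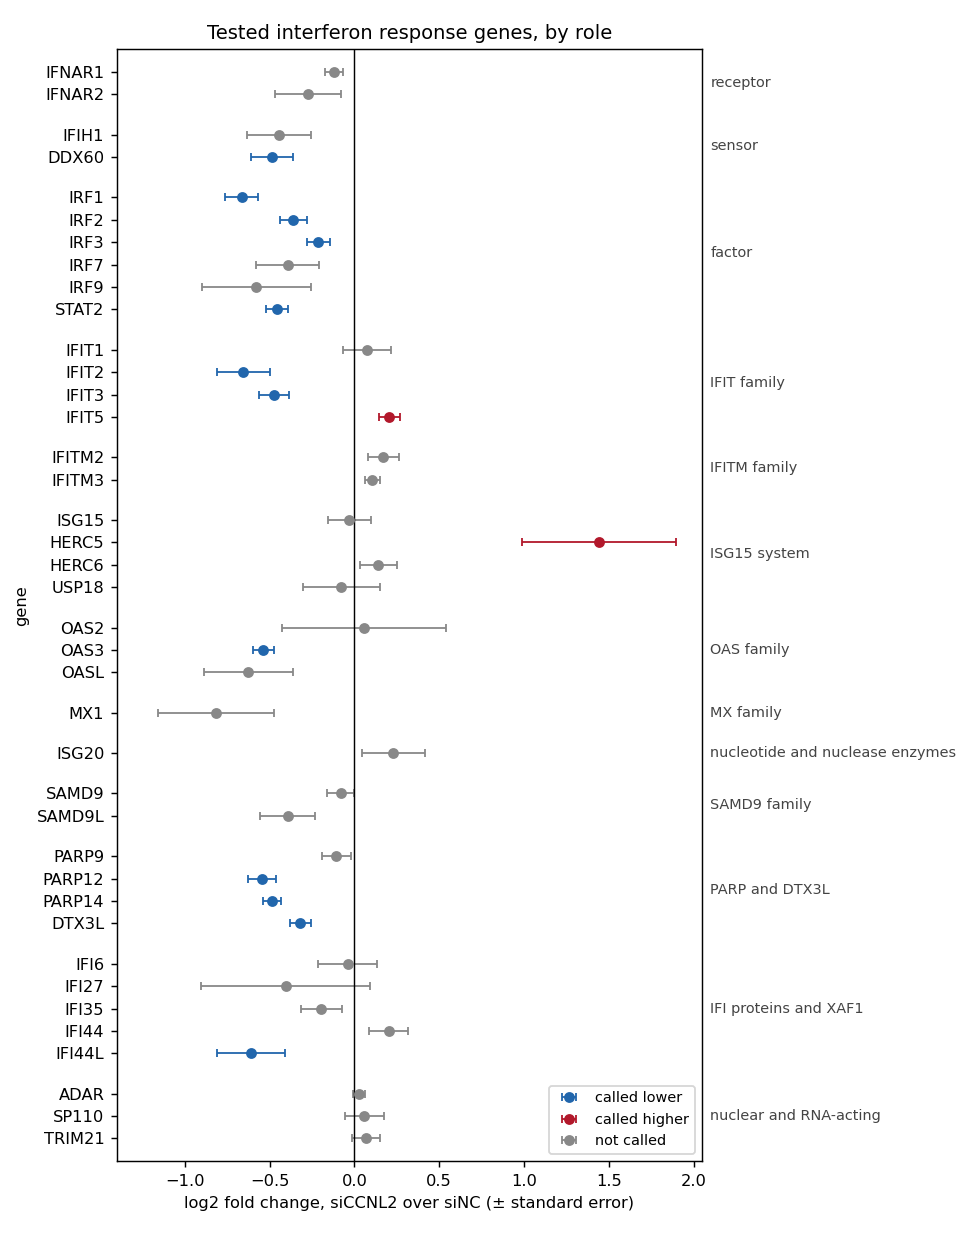
Log2 fold change of siCCNL2 over siNC (horizontal axis) with its standard error for each of the 39 tested members, ordered by role down the page. All 10 receptors, sensors and factors lie left of 0, while the effectors lie on both sides, with HERC5 farthest to the right at 1.44.

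Of the 10 receptors, sensors and factors, 5 were called lower, 0 higher and 5 were not called. The log2 fold change lay below 0 for all 10, with a median of -0.42, where 49.7% of all tested genes lay below 0. Their summed level was 227, 211 and 222 CPM in siCCNL2 libraries, against 276, 258 and 266 CPM in siNC libraries. Of the 29 tested effectors, 7 were called lower, 2 higher and 20 were not called, with a median of -0.08. Called lower were 50% of the sensors and factors and 24.1% of the effectors, against 16.5% of all tested genes. Called higher were 0% and 6.9%, against 17.2% of all tested genes. The effectors summed to 845, 840 and 856 CPM in siCCNL2, against 907, 895 and 922 CPM in siNC. No test was made of the difference between the classes, whose members were assigned with earlier results known. Counting OAS1, OAS2, OAS3, TRIM21 and USP18 with the sensors and factors moved their median to -0.38 and left that of the effectors at -0.08. The effector median was -0.20 without the filter on low counts and -0.05 without siCCNL2 replicate 2.

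Among the transcription factors, IRF1 showed the largest called fall. IRF1 is both an interferon-induced gene and an activator that binds ISRE-like elements. It stood at 12.6, 12.8 and 10.9 CPM in siCCNL2 libraries, against 19, 18.6 and 19.8 CPM in siNC libraries. Every siCCNL2 library lay below every siNC library, at a log2 fold change of -0.66 (SE 0.0972, adjusted p = 7.86e-06 by edgeR). The deposited table places IRF1 at 132440440 to 132508719 of chromosome 5 (GRCh38, minus strand). In GENCODE 29, 22.0% of its exonic bases overlap exons of other genes on the opposite strand. That is a share of bases, and the share of its reads affected was not tested.

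STAT2, the partner of IRF9 in the complex that binds ISRE, stood at 34.0, 31.3 and 32.1 CPM in siCCNL2 libraries, against 46.4, 43.6 and 43.8 CPM in siNC libraries. The groups were far apart, with STAT2 lower by a log2 fold change of -0.46 (SE 0.0631, adjusted p = 3.54e-06 by edgeR). IRF9, which gives that complex its DNA binding, was scarce at 1.21, 0.895 and 0.954 CPM in siCCNL2, against 1.59, 1.39 and 1.63 CPM in siNC. Its groups did not overlap, but with 12 to 27 counts per library the log2 fold change of -0.58 had an SE of 0.32 and was not called (adjusted p = 0.181 by edgeR). Exons of another gene on the same strand cover 48.4% of the exonic bases of IRF9 in GENCODE 29, and whether reads were lost to that overlap was not tested.

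IRF2, which competes with IRF1 for the same sites, stood at 20.7, 20.2 and 22.2 CPM in siCCNL2 libraries, against 27.0, 25.5 and 28.5 CPM in siNC libraries. Its fall of 0.36 on the log2 scale (SE 0.0792, adjusted p = 9.18e-04 by edgeR) came with no overlap between groups. IRF3, the factor that is present before infection and is activated by phosphorylation, stood at 31.1, 31.7 and 33.6 CPM in siCCNL2, against 38.1, 38.5 and 35.1 CPM in siNC. This was the smallest called fall among members, at a log2 fold change of -0.21 (SE 0.0669, adjusted p = 0.0156 by edgeR). In GENCODE 29, exons of another gene on the opposite strand cover 19.3% of the exonic bases of IRF3. The IRF3 call was lost without siCCNL2 replicate 1 (adjusted p = 0.0667), siNC replicate 1 (0.0637) or siNC replicate 2 (0.0714). IRF7, the interferon-induced factor that amplifies the response, stood at 3.51, 3.73 and 5.85 CPM in siCCNL2, against 5.79, 6.13 and 5.27 CPM in siNC. Replicate 3 of siCCNL2 lay among the siNC values, and IRF7 was not called (log2 fold change -0.39, adjusted p = 0.112 by edgeR). It was called without that library (-0.66, adjusted p = 0.0132).

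Both sensors had lower values in every siCCNL2 library. DDX60, a helicase reported to aid RNA sensing, stood at 8.67, 8.95 and 8.02 CPM in siCCNL2, against 13.6, 11.6 and 10.5 CPM in siNC, and fell by 0.49 on the log2 scale (SE 0.123, adjusted p = 0.00329 by edgeR). IFIH1 stood at 3.73, 2.83 and 4.71 CPM in siCCNL2, against 5.49, 5.05 and 4.89 CPM in siNC. Its log2 fold change of -0.44 (SE 0.187) was just outside the threshold (adjusted p = 0.0724 by edgeR) and passed it without siCCNL2 replicate 3 (adjusted p = 0.0275).

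Neither receptor chain was called. IFNAR1 stood at 108, 95.6 and 101 CPM in siCCNL2, against 115, 104 and 112 CPM in siNC, with overlapping groups, and was not called (log2 fold change -0.12, adjusted p = 0.0747 by edgeR). It was called with upper-quartile factors (adjusted p = 0.0414), with replicate number blocked (0.0371) and without siCCNL2 replicate 1 (0.0205) or siNC replicate 2 (0.0372). IFNAR2 had 3.18, 3.43 and 2.93 CPM in siCCNL2, against 3.96, 3.48 and 4.08 CPM in siNC, with no overlap and no call (log2 fold change -0.27, adjusted p = 0.307 by edgeR). On the deposited TPM-like score, which corrects for gene length, IFNAR1 averaged 55.1 ± 2.84 and IFNAR2 1.31 ± 0.103 in siNC (SD, n = 3 each). Exons of other genes cover 83.2% of the exonic bases of IFNAR2 in GENCODE 29, 44.2% on the same strand, so its level is uncertain.

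**Figure D2:**
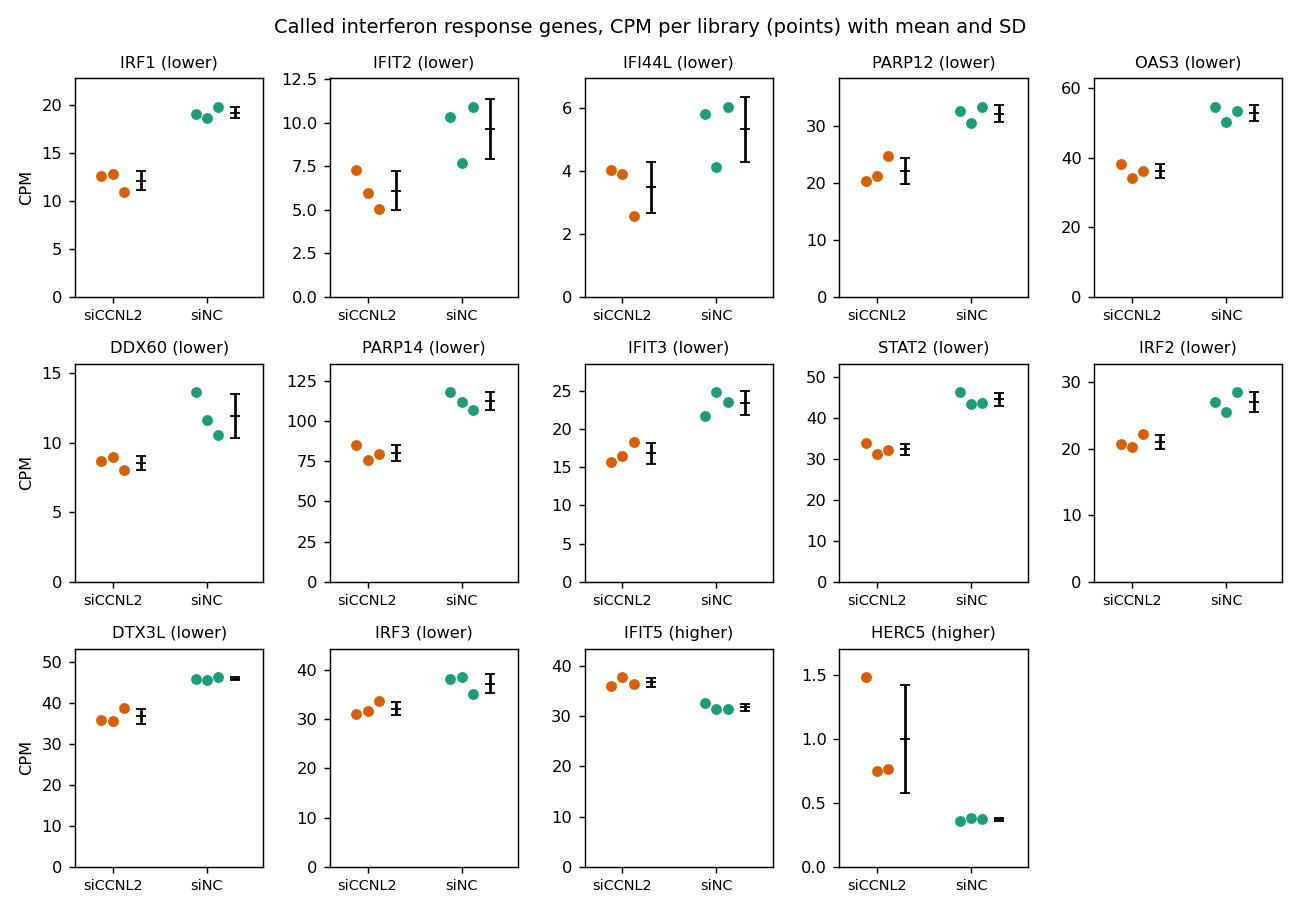
CPM in each library (points, vertical axes start at 0) with the mean and SD beside them for the 14 called members, siCCNL2 on the left and siNC on the right of each panel. The 12 members called lower and the 2 called higher show no overlap between groups, but they were selected by a test on the same values. Of all tested genes, 43.9% show no overlap. For HERC5, siCCNL2 replicate 1 lies far above its 2 fellows.

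The PARP and DTX3L group held the most uniform falls among effectors, with 3 of 4 called lower. PARP14, a large ADP-ribosyltransferase of the interferon response, stood at 85.3, 75.7 and 79.2 CPM in siCCNL2 libraries, against 118, 112 and 107 CPM in siNC libraries. It had the smallest p among the members, with a log2 fold change of -0.49 (SE 0.0522, adjusted p = 7.45e-08 by edgeR). PARP12, an antiviral enzyme of the same family, had 20.4, 21.2 and 24.7 CPM in siCCNL2, against 32.7, 30.6 and 33.4 CPM in siNC. The PARP12 groups were far apart, with a log2 fold change of -0.55 (SE 0.0806, adjusted p = 8.76e-06 by edgeR).

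DTX3L, a ubiquitin ligase, and PARP9, its enzymatic partner, form a complex and lie head to head on chromosome 3, with the deposited gene spans overlapping at their starts. DTX3L stood at 35.9, 35.6 and 38.8 CPM in siCCNL2, against 45.8, 45.5 and 46.3 CPM in siNC (log2 fold change -0.32, SE 0.0607, adjusted p = 1.98e-04 by edgeR). PARP9, read from the other side of the same ISRE core, had 18.6, 19.2 and 18.1 CPM in siCCNL2, against 18.8, 20.8 and 20.6 CPM in siNC. Its groups overlapped and it was not called (log2 fold change -0.11, SE 0.0859, adjusted p = 0.368 by edgeR). The difference between DTX3L and PARP9 was not tested.

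The OAS enzymes make short oligoadenylates when they bind double-stranded RNA. Per length, OAS3 had the highest level of the family, with a mean score of 16.7 in siNC, where OASL had 2.79. OAS3 stood at 38.2, 34.2 and 36.2 CPM in siCCNL2, against 54.6, 50.1 and 53.5 CPM in siNC. It fell by 0.54 on the log2 scale (SE 0.0621, adjusted p = 2.33e-07 by edgeR), with the groups far apart. OASL, a relative without that enzyme activity, had 1.65, 1.42 and 2.67 CPM in siCCNL2, against 2.36, 3.41 and 3.14 CPM in siNC, and was just outside the threshold (log2 fold change -0.62, SE 0.265, adjusted p = 0.0732 by edgeR). Without siCCNL2 replicate 3, whose value lay among those of siNC, OASL was called (log2 fold change -0.94, adjusted p = 0.0222), as it was without siNC replicate 1 (0.0489). OAS2 averaged 0.63 ± 0.451 CPM in siCCNL2 and 0.637 ± 0.0501 CPM in siNC and was not called. OAS1 had 7, 6 and 6 counts in siCCNL2, against 6, 15 and 15 counts in siNC, too few to test.

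The IFIT genes, whose proteins bind viral RNA ends and block translation, lie side by side on chromosome 10 and went in different directions. IFIT2 stood at 7.29, 5.96 and 5.03 CPM in siCCNL2, against 10.3, 7.71 and 10.9 CPM in siNC (log2 fold change -0.65, SE 0.156, adjusted p = 0.00194 by edgeR). IFIT3 stood at 15.7, 16.5 and 18.4 CPM in siCCNL2, against 21.8, 24.9 and 23.6 CPM in siNC (log2 fold change -0.48, SE 0.0895, adjusted p = 1.76e-04 by edgeR). Both fell with no overlap between groups, although IFIT2 values in siCCNL2 replicate 1 and siNC replicate 2 were close.

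IFIT1, in the middle of the cluster and the best known of the family, had 7.35, 7.61 and 7.70 CPM in siCCNL2, against 7.38, 5.94 and 8.16 CPM in siNC, with overlapping groups and no call (adjusted p = 0.733 by edgeR). IFIT5, the last gene of the cluster, stood at 36.0, 37.8 and 36.5 CPM in siCCNL2, against 32.6, 31.4 and 31.4 CPM in siNC. It rose by 0.21 on the log2 scale (SE 0.0644, adjusted p = 0.015 by edgeR), with every siCCNL2 library above every siNC library. From IFIT2 and IFIT3 at one end to IFIT5 at the other, the cluster spans 89283694 to 89421605 of chromosome 10 in GRCh38.

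ISG15, a ubiquitin-like protein that is attached to other proteins, stood at 7.90, 7.46 and 8.21 CPM in siCCNL2, against 7.68, 7.96 and 8.47 CPM in siNC, and was not called (log2 fold change -0.03, SE 0.128, adjusted p = 0.885 by edgeR). USP18, the protease that removes ISG15 and restrains IFNAR2, averaged 2.65 ± 0.32 CPM in siCCNL2 and 2.78 ± 0.37 CPM in siNC (SD, n = 3 each) and was not called. HERC5, the ligase that attaches ISG15, had 27, 10 and 12 counts in siCCNL2 libraries, against 6, 6 and 6 counts in siNC libraries. That is 1.48, 0.746 and 0.763 CPM in siCCNL2 against 0.354, 0.379 and 0.377 CPM in siNC, a log2 fold change of 1.44 (SE 0.454, adjusted p = 0.0159 by edgeR). HERC5 thus rose on very few reads, with 1 siCCNL2 library at about the sum of the others. Without that library the log2 fold change was 1.02 (adjusted p = 0.171 by edgeR). The call was also lost without siNC replicate 1 (0.0584) or siNC replicate 2 (0.0532) and in the limma fit to log2 scores with a pseudocount of 1 (0.0526). HERC5 did not pass a filter of 1 CPM in 3 libraries, and the DESeq2 Wald test gave it no adjusted p. HERC6, its neighbour on chromosome 4, averaged 12.6 ± 1.1 CPM in siCCNL2 and 11.5 ± 0.496 CPM in siNC and was not called (adjusted p = 0.347 by edgeR).

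IFI44L fell, and IFI44, which lies 3650 bases away on chromosome 1, was not called. IFI44L, an interferon-induced gene known for damping the response, stood at 4.0, 3.88 and 2.54 CPM in siCCNL2, against 5.79, 4.11 and 6.02 CPM in siNC (log2 fold change -0.61, SE 0.202, adjusted p = 0.0216 by edgeR). The groups were separated narrowly, and the call was lost without siCCNL2 replicate 3 (adjusted p = 0.144), siNC replicate 1 (0.0867) or siNC replicate 3 (0.0961) and in the limma fit to log2 scores with a pseudocount of 1 or 0.1 (0.0931 and 0.108). IFI44 averaged 12.3 ± 1.03 CPM in siCCNL2 and 10.7 ± 0.998 CPM in siNC (log2 fold change 0.20, adjusted p = 0.189 by edgeR) and was not called. The mitochondrial protein gene IFI6 averaged 4.31 ± 0.262 CPM in siCCNL2 and 4.45 ± 0.438 CPM in siNC, with no call. IFI35 stood at 11.3, 15.8 and 10.8 CPM in siCCNL2, against 14.0, 14.1 and 14.8 CPM in siNC. Its siCCNL2 replicate 2 was the highest of all 6 libraries, and IFI35 was called lower only when that library was left out (log2 fold change -0.37, adjusted p = 0.016 by edgeR).

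The remaining effectors were not called. SAMD9L, a restriction factor for poxviruses, had 5.21, 3.80 and 5.34 CPM in siCCNL2, against 6.38, 6.32 and 6.34 CPM in siNC, without overlap and just outside the threshold (log2 fold change -0.39, adjusted p = 0.0648 by edgeR). Its neighbour SAMD9 averaged 27.0 ± 1.2 CPM in siCCNL2 and 28.6 ± 2.71 CPM in siNC. MX1, a GTPase that traps viral nucleocapsids, had 19, 9 and 18 counts in siCCNL2, against 22, 25 and 36 counts in siNC, again without overlap and just outside the threshold (log2 fold change -0.82, SE 0.342, adjusted p = 0.069 by edgeR).

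IFITM3, which blocks virus entry at endosomes, stood at 116, 128 and 120 CPM in siCCNL2, against 112, 113 and 114 CPM in siNC. All siCCNL2 values were higher, but the log2 fold change of 0.11 (SE 0.0458) was just outside the threshold (adjusted p = 0.0805 by edgeR). It passed without siCCNL2 replicate 1 (adjusted p = 0.0309) and in the limma fits to log2 scores with a pseudocount of 1 (0.0427) or 0.1 (0.0438). IFITM2, a close copy of IFITM3 that can share its reads, averaged 25.9 ± 3.38 CPM in siCCNL2 and 22.9 ± 1.45 CPM in siNC. It was called higher only without siCCNL2 replicate 1 (log2 fold change 0.28, adjusted p = 0.016). In GENCODE 29, IFITM1 exons cover 22.7% of the exonic bases of IFITM2. Exons of another gene on the opposite strand cover 21.3% of those of IFITM3. ADAR, which edits adenosines in double-stranded RNA and has a constitutive and an interferon-induced isoform that gene counts do not separate, stood at 307, 296 and 314 CPM in siCCNL2, against 296, 293 and 310 CPM in siNC (log2 fold change 0.03, SE 0.0372, adjusted p = 0.624 by edgeR). Its groups overlapped, and its standard error was the smallest among the tested members. ISG20, a nuclease, averaged 4.23 ± 0.573 CPM in siCCNL2 and 3.63 ± 0.265 CPM in siNC, without overlap and not called (adjusted p = 0.376 by edgeR). TRIM21, a ligase that acts as an antibody receptor in the cytoplasm, and the nuclear body protein gene SP110 had log2 fold changes of 0.07 and 0.06 and were not called. IFI27 stayed under 1 CPM in every library (log2 fold change -0.41, SE 0.496, adjusted p = 0.575 by edgeR).

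Many classical effectors were at or near the detection floor in both groups. CMPK2 had 0 counts in all 6 libraries, and MX2, RSAD2 and XAF1 had 0 counts in siCCNL2 and a single count in siNC. A count of 0 allows up to 3 counts, which is 0.165 to 0.224 CPM in siCCNL2 and 0.177 to 0.19 CPM in siNC libraries, for counting error only. BST2, which tethers budding virions, had 6, 0 and 0 counts in siCCNL2, against 5, 5 and 1 counts in siNC. IFITM1 had 3, 3 and 3 counts in siCCNL2, against 7, 6 and 9 counts in siNC. No fold change is given for these genes.

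**Figure D3:**
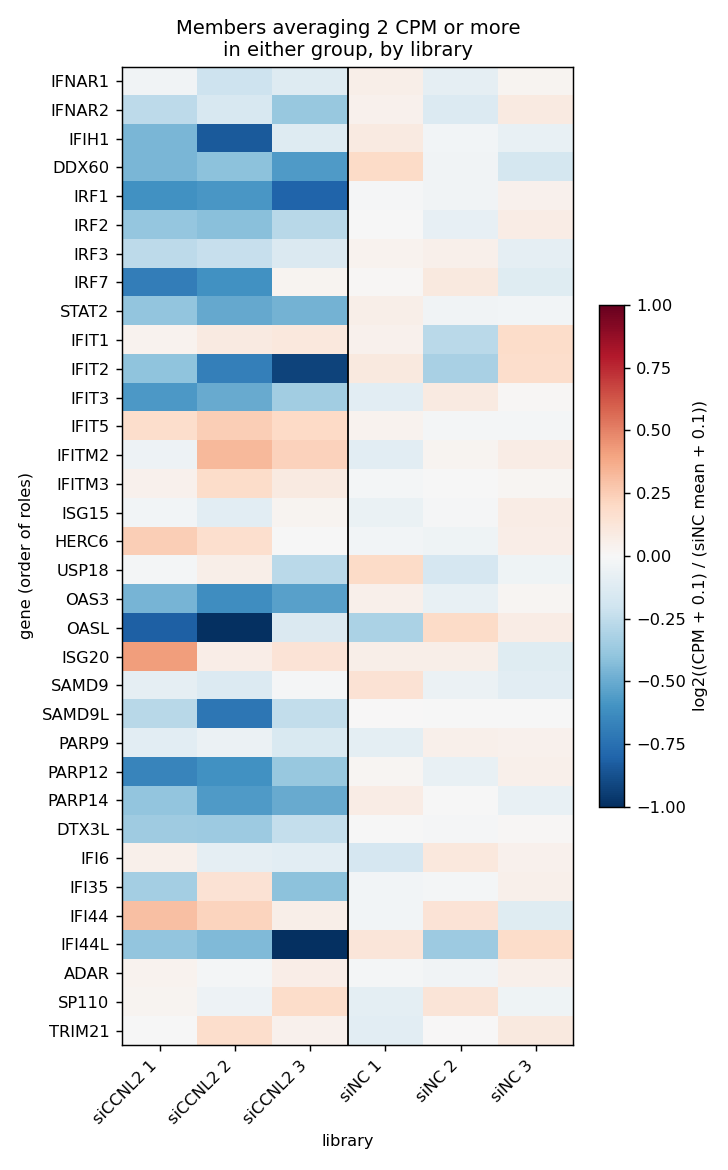
Log2 ratio of each library's CPM to the siNC mean, with 0.1 added to both, for the 34 members averaging at least 2 CPM in either group. Columns are the 3 siCCNL2 libraries and then the 3 siNC libraries, rows follow the roles, and blue is below and red above the siNC mean. IRF1, STAT2, OAS3, PARP12 and PARP14 are blue in all 3 siCCNL2 columns, whereas IFI35 and IRF7 are not.

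Levels per length spread widely within the response. On the deposited TPM-like score, IFITM3 was highest at 355 ± 10 in siCCNL2 and 332 ± 1.75 in siNC, followed by ADAR at 128 ± 6.18 in siCCNL2 and 127 ± 2.86 in siNC (SD, n = 3 each). In siNC the order went on with IFITM2 (69.9), IFNAR1 (55.1), PARP14 (40.9) and IRF3 (39.9), then TRIM21 (36.2) and IFI35 (35.7). From PARP14 to IFI35 each gene overlapped the next in its library values, whereas IFITM3, ADAR, IFITM2 and IFNAR1 were each separate from the next. Near the bottom stood MX1 (0.91), IFI27 (0.80), BST2 (0.693), OAS2 (0.349), HERC5 (0.324) and OAS1 (0.304), each overlapping the next. In all, 8 members stayed under 1 CPM in every library.

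Upstream of the response, interferon RNA itself was near absent. Of 21 interferon genes, 16 had 0 counts in all 6 libraries, among them IFNB1, which encodes interferon beta, and the whole list summed to between 2 and 5 counts per library. None could be tested. Of 22 genes of JAK-STAT signalling and its brakes, 19 were tested, 4 fell (21.1%) and 3 rose (15.8%), near the 16.5% lower and 17.2% higher among all tested genes (median log2 fold change -0.10). JAK1 averaged 320 ± 4.83 CPM in siCCNL2 and 370 ± 10.9 CPM in siNC (log2 fold change -0.21, adjusted p = 4.73e-05 by edgeR), and TYK2, its partner on the interferon receptor, was not called (-0.11, adjusted p = 0.154 by edgeR). SOCS1, an interferon-induced inhibitor of JAK kinases, showed the largest fall in the list, at 5.20 ± 1.18 CPM in siCCNL2 and 12.7 ± 0.449 CPM in siNC (-1.28, adjusted p = 1.05e-07 by edgeR). STAT5A also fell (-0.40). The risers were PTPN11, the phosphatase SHP2 (0.58), STAT3 (0.22) and STAT5B (0.18), of which STAT5B lost its call in the limma fits to log2 scores with a pseudocount of 1 or 0.1 (adjusted p = 0.0585 and 0.0584).

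Of 26 genes listed under nucleic acid sensing, 20 were tested, 6 fell and 6 rose, each 30% of those tested (median log2 fold change -0.10). Among all tested genes, 16.5% were called lower and 17.2% higher. The 6 that fell include TLR4, which is in the list but does not itself sense nucleic acid. MYD88, the adaptor of most Toll-like receptors, averaged 14.5 ± 0.506 CPM in siCCNL2 and 23.5 ± 1.1 CPM in siNC (-0.70, adjusted p = 7.86e-07 by edgeR). STING1, the adaptor downstream of the DNA sensor cGAS, averaged 26.6 ± 2.3 CPM in siCCNL2 and 36.6 ± 1.12 CPM in siNC (-0.46, adjusted p = 2.34e-05 by edgeR). TLR4, a receptor for bacterial lipopolysaccharide, had 7, 6 and 7 counts in siCCNL2, against 27, 17 and 35 counts in siNC (-1.92, adjusted p = 6.12e-04 by edgeR), and lost its call in the limma fit to log2 scores with a pseudocount of 1 (adjusted p = 0.0712). TRAF3, a ligase that links sensors to interferon induction, rose the most (0.70), ahead of RNF135 (0.43) and CGAS, which encodes cGAS (0.24). RNF135 lost its call without siCCNL2 replicate 3 or siNC replicate 1 (adjusted p = 0.0607 and 0.0591 by edgeR) and CGAS without siNC replicate 2 (0.0512).

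Among 65 other interferon-stimulated genes, 58 were tested, 24 fell (41.4%) and 8 rose (13.8%), with a median log2 fold change of -0.13. Among all tested genes, 16.5% were called lower and 17.2% higher. This list, like the other pathway lists, was chosen with earlier results of these data known, and its shares were not tested. The largest falls among genes of at least 1 CPM were UBA7, the enzyme that activates ISG15 (2.5 ± 0.367 CPM in siCCNL2 and 6.94 ± 1.06 CPM in siNC, log2 fold change -1.46) and APOL1 (-0.84). OGFR, the opioid growth factor receptor, was the largest rise at 96.1 ± 4.32 CPM in siCCNL2 and 34.4 ± 0.765 CPM in siNC (1.48), followed by the helicase-like SLFN11 (0.38) and TRIM26 (0.38).

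**Figure D4:**
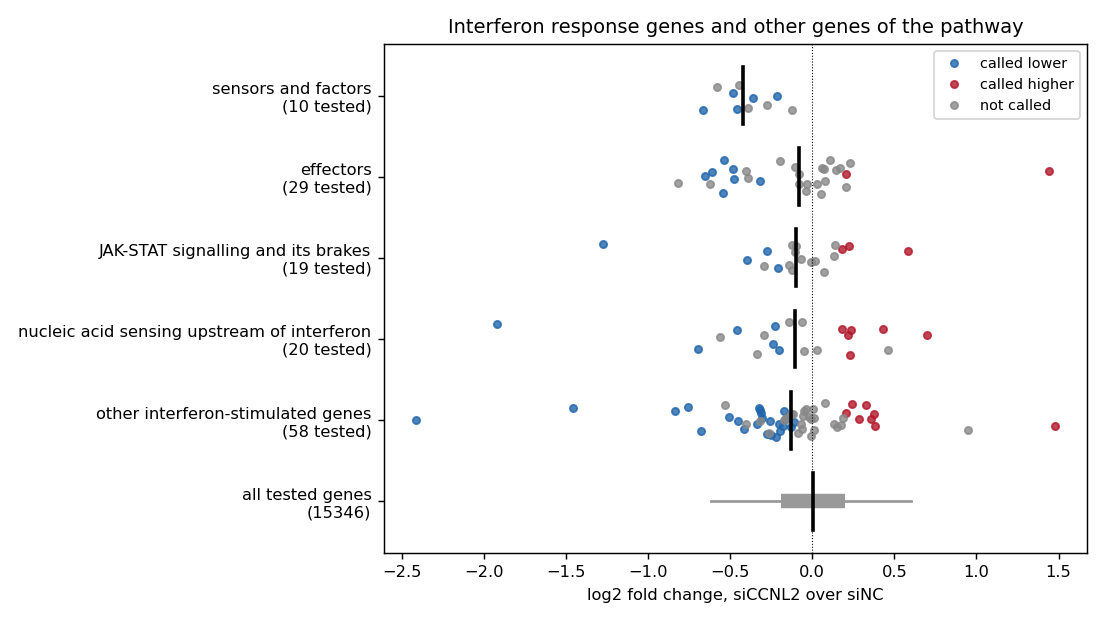
Log2 fold change of siCCNL2 over siNC (horizontal axis) for tested genes of each class and list (points, with vertical scatter only for legibility). Black bars are medians, and the bottom row gives the median, the middle 50% and the range between the 5th and 95th percentiles (-0.62 and 0.60) of all 15346 tested genes. The sensors and factors lie between -0.66 and -0.12, while each of the other sets lies on both sides of 0.

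The ISRE core was found among genes of either direction. Of the 9 members called lower that have a promoter entry, 7 hold it and IRF1 and STAT2 do not. Both members called higher hold it, as do 12 of 19 with an entry that were not called. Outside the members, 413 tested genes have the core in a RefSeq promoter, of which 18.9% were called lower and 20.3% higher (median log2 fold change -0.01). Among 10308 tested genes with a promoter entry and no core, 17.9% were called lower and 19.2% higher (median 0.01). These shares are descriptions of letters within a 300-base window and were not tested.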

How the data were processed

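The authors' deposited tables hold whole-number read counts per gene name, not normalized, and a TPM-like score that the authors scaled by gene length and library size. The score columns sum to 1000000 over distinct names. Tools named by the submitters' processing notes are HISAT2, HTSeq 2.0.1 and fastp 0.23.0, with build GRCh38. Which annotation release and strand setting were used is not given in the sources used here. How reads of overlapping or antisense genes were assigned is therefore not known. Each gene name was used once (60835 of 62710 rows).

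Genes passing filterByExpr (15346, holding 99.8% of counts) were tested with edgeR 4.0.16 in R 4.3.3 (TMM factors, quasi-likelihood test, no covariates). Fold changes are siCCNL2 over siNC, and an SE is the size of the log2 fold change over the square root of F. The members, their roles and the pathway lists were chosen with earlier results of these data known. Every member may be named. From each list up to 3 called genes per direction with at least 1 CPM in the higher group are named, plus JAK1, TYK2 and IFNB1. Some genes the rule names are not reported here.

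Alternatives used DESeq2 1.42.0, limma 3.58.1 (voom, or trend fits to log2 scores with a pseudocount of 1 or 0.1), other factors and filters, a replicate block, a threshold of 0.01 and each library left out. The exon overlaps were taken from GENCODE 29 on GRCh38, which may not be the authors' release, and promoters from RefSeq.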

Additional observations from a re-analysis of the deposited data

How the results depend on the processing

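The count of 12 members called lower ran from 11 to 14 without 1 library and from 10 (threshold 0.01) to 13 in the other alternatives. The count of 2 called higher was 1 with a filter of 1 CPM in 3 libraries and by the DESeq2 Wald test, and 0 at a threshold of 0.01. It was 3 in the limma fit to log2 of the score plus 0.1, and 1 to 3 without 1 library. The median log2 fold change of sensors and factors (-0.42) was -0.36 on log2 of the score plus 1 and -0.38 with OAS1, OAS2, OAS3, TRIM21 and USP18 counted with them. Without 1 library it ran from -0.46 to -0.33. The effector median (-0.08) was -0.20 without a filter on low counts, where more low effectors enter, and ran from -0.11 to -0.05 without 1 library. Genes called in the pathway lists numbered 51, and 43 to 49 without 1 library. In the other alternatives they ran from 42 (threshold 0.01) to 52 (upper-quartile factors). CCNL2 kept its call in all alternatives run. Leaving out members whose exons overlap another gene over more than 20% of their length, chosen after seeing the data, left 11 called lower and 2 higher.

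Of members not called, 7 changed sign. Without 1 library the log2 fold change of IFIT1 ran from -0.041 to 0.18, ISG15 from -0.061 to 0.011, USP18 from -0.16 to 0.035, OAS2 from -0.52 to 0.46, SAMD9 from -0.13 to 0.00 (0.0027), IFI6 from -0.12 to 0.019 and SP110 from -0.01 (-0.0088) to 0.13. OAS2 was also -0.24 with limma-voom, -0.020 and -0.21 on log2 of the score plus 1 and plus 0.1, and -0.037 with the replicate block. The cause was not tested. Same-numbered libraries deviated together only very weakly (correlations of 0.023 to 0.043), though more than differently numbered ones (-0.03 to 0.005). The numbers were not taken to pair the samples. With the replicate block 13 members were called lower and 2 higher.

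Depth limits what can be said of the 7 members that were not tested and of HERC5, IRF9, OAS2, IFI27 and MX1, which rest on at most 36 counts per library.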
